A study of Mus musculus with 40 samples.

Results

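The genes described here make, sense, export and break down cholesterol in the mouse brain. They were chosen by symbol from a list of 29 genes, and that list was chosen with earlier results of these data known. Of the 29 genes, 26 had a row on the array, out of 19505 genes with a row. Each had 1 row, and all 26 were among the 15410 genes that passed a filter on dim signals and were tested. Acat2, Tm7sf2 and Srebf1 were not analysed here. RNA came from 5 brain regions (amygdala, cerebellum, hippocampus, prefrontal cortex and striatum) of mice aged 8 to 10 weeks, labelled with the background strain C56BL/6 and kept at room temperature on chow. The mice carried either alanine (Ala92D2HY) or threonine (Thr92D2HY) at position 92 of deiodinase D2, the product of Dio2, which activates thyroxine inside the brain. There were 4 arrays in each of the 10 groups of region and genotype, 40 in all, and there was no other genotype as a reference. Which animal gave which array, and whether animals were pooled, is not in the labels. The p-values therefore reflect spread among arrays, and that spread may be technical.

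Brain cholesterol is made almost wholly inside the brain, because lipoproteins of the blood do not cross the blood-brain barrier. Synthesis starts with the mevalonate pathway, which builds isoprenoid units from acetyl-CoA, and goes on through squalene and lanosterol to a series of sterols that end in cholesterol. The transcription factor SREBP-2, encoded by Srebf2, drives these genes when membranes hold little sterol: the escort protein Scap carries it to the Golgi for cleavage, and the Insig proteins hold the complex back when sterol is plentiful. Cholesterol leaves cells on apolipoprotein E, loaded by the transporters Abca1 and Abcg1, and leaves the brain mainly as an oxysterol made by the neuronal enzyme Cyp46a1. Thyroid hormone is known to regulate several genes of sterol synthesis in liver.

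Signals are log2 values from RMA, a method that corrects background, normalizes arrays to each other and summarizes probes. Levels of different genes cannot be set against each other, because each rests on its own probes. Negative controls had a median signal of 5.73 to 6.35, depending on the array. Of the 26 genes, 23 were above the negative control median of the same array on all 40 arrays. Mvd was above it on 37 arrays, Fdps on 28 and Mvk on 12, so these 3 were measured near background. Of the marker genes, 9 of 9 cerebellar and 11 of 11 striatal ones were higher in the region of that name (limma, adjusted p under 0.05). So were 10 of 10 hippocampal and 7 of 7 amygdalar markers. In the prefrontal cortex 8 of 11 neocortex markers were higher, and so were 8 of 8 olfactory bulb markers. The lists were chosen with earlier results of these data known, so these counts are not an independent check of the tissue labels. On 9 arrays the markers of choroid plexus, liver, striatum or thalamus, averaged over each list as a score, stood over 1 log2 unit above the mean of the region. The counts of called genes were repeated without these 9 arrays. Markers of meninges and of regions other than the array's own passed the same limit on 2 further arrays, amygdala Thr replicate 7 and prefrontal cortex Ala replicate 27; a fit without all 11 gave 0 genotype calls as well.

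Upstream sequences of the genes that differed most between cerebellum and the other regions are shown first, because several of them differ between the same regions and SREBP-2 is known to act at promoters together with the partner factors NF-Y and Sp1. Of the 26 genes, 22 had a window in the RefSeq promoter table (GRCm38.p6); Sqle, Fdps, Fdft1 and Abcg1 had none. Shown are the 250 bases before the annotated start of the 4 genes with a window that were lowest in cerebellum and of the 2 that were highest, 5′ to 3′ on the strand of the gene. Capitals mark TCACNCCAC (a sterol response element), CCAAT (NF-Y) and GGGCGG (Sp1), searched on both strands, so that their reverse complements are also in capitals. In the 6 sequences shown no 2 marked motifs overlapped.
Cyp46a1, chr12:108334066-108334315, + strand: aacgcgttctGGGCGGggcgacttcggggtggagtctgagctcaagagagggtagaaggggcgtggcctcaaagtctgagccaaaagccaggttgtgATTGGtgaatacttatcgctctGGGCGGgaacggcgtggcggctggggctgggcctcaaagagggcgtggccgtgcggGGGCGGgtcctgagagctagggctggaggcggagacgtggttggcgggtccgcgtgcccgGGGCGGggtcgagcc
Msmo1, chr8:64733579-64733828, - strand: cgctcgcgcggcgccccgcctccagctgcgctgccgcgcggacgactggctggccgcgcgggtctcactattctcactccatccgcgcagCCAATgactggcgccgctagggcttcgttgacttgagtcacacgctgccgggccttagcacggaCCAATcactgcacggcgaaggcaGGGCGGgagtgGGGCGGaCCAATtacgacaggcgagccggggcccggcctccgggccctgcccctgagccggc
Srebf2, chr15:82147019-82147268, + strand: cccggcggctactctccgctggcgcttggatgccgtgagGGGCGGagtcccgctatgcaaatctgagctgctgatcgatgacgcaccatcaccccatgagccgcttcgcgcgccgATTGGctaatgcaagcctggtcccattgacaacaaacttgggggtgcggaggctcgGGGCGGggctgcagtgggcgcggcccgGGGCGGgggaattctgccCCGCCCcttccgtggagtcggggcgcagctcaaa
Hmgcs1, chr13:119690101-119690350, + strand: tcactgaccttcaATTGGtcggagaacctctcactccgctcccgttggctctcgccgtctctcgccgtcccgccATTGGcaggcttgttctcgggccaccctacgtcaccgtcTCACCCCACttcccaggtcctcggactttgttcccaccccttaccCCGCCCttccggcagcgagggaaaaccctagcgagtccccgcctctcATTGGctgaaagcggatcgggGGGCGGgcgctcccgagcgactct
Ebp, chrX:8193513-8193762, - strand: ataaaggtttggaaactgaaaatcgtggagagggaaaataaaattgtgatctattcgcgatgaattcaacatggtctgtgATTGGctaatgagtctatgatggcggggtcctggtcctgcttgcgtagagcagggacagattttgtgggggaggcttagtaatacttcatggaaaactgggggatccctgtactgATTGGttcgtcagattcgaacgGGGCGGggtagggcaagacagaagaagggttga
Lbr, chr1:181842402-181842651, - strand: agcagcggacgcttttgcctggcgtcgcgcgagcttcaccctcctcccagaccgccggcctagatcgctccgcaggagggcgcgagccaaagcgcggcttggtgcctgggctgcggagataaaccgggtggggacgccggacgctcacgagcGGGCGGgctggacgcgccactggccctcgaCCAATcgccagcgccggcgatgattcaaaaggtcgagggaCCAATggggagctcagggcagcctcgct
The window of Hmgcs1 held TCACNCCAC 1 time, CCAAT 3 times and GGGCGG 2 times. Msmo1 had CCAAT 3 times and GGGCGG 2 times, Srebf2 and Cyp46a1 had CCAAT 1 time and GGGCGG 4 times, and Ebp and Lbr had CCAAT 2 times and GGGCGG 1 time. Both shorter motifs were present in genes lower and in genes higher in cerebellum.

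Over the whole windows of 250 bases before and 50 bases after the start, CCAAT was present for 86.4% of the 22 genes (19 genes), against 42.2% of 15691 genes on the array with a window. GGGCGG was also present for 86.4% of the 22 genes, against 51.2% of those on the array. TCACNCCAC was found for 1 of the 22 genes (4.55%), Hmgcs1, against 1.43% on the array. A gene can have several windows, and these shares count a match in any of them. Over single windows, CCAAT was in 63.3% of the 30 windows of these genes, against 37.9% of 19143 on the array. GGGCGG was in 73.3% against 47.9%, and TCACNCCAC in 3.33% against 1.22%. A match is a run of letters, not a measured binding site.

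The first comparison was between genotypes. No gene of the 26 was called in any region, in the mean of the 5 regions, or in the test of whether the genotype difference varied between regions (limma, Benjamini-Hochberg adjusted p under 0.05 over all 15410 genes). Over all genes, 0.123% were called in amygdala, 0.0779% in striatum, 0.0195% in the mean over regions and 0.0389% for the variation between regions, and 0 in cerebellum, hippocampus and prefrontal cortex. At an unadjusted p under 0.05 the count among the 26 was 3 in striatum, 1 in the mean over regions and 0 elsewhere. All genes passed that looser rule at 6.09% in striatum, 5.31% in the mean, 5.26% in amygdala, 3.21% in hippocampus, 2.36% in prefrontal cortex and 1.99% in cerebellum, and at 2.68% for the variation between regions. Without the 9 arrays that stood apart, the count of called genes was also 0 in every one of these tests.

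**Figure D1:**
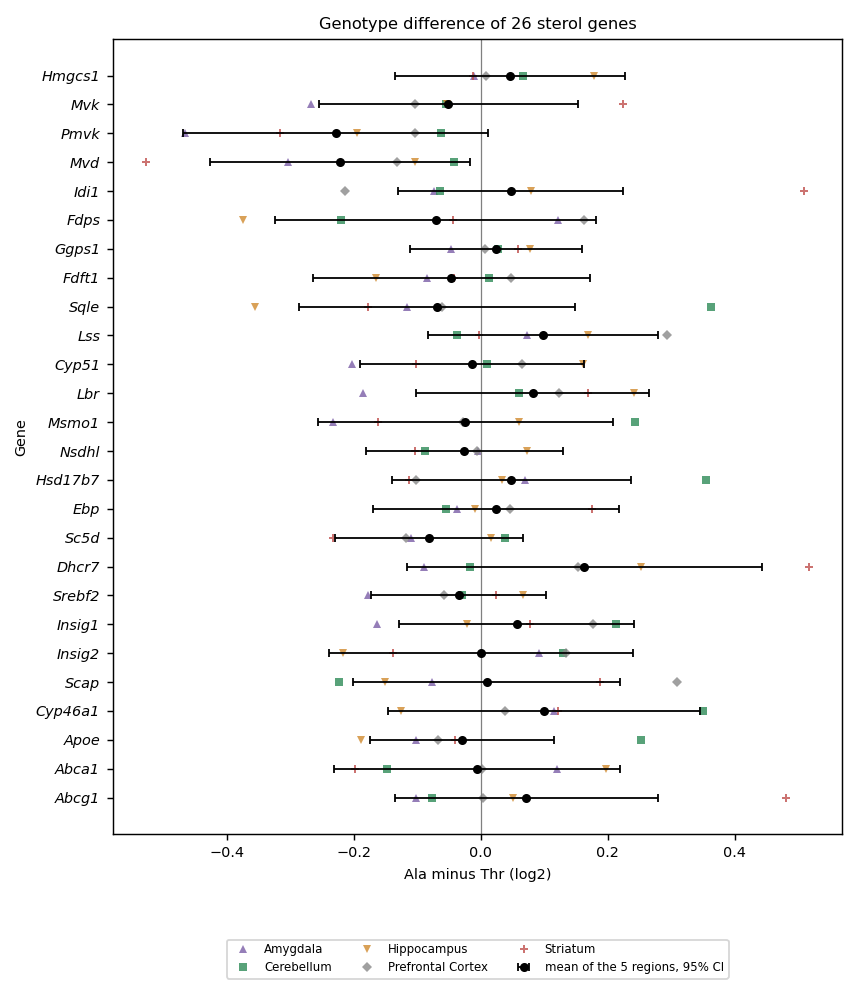
Genotype difference (Ala minus Thr, log2, horizontal axis) of each of the 26 genes (vertical axis), as the mean over 5 regions with its 95% confidence interval (black) and as the value in each region (coloured symbols). The intervals of the means run from -0.47 at the lowest to 0.44 at the highest, and the symbols farthest from 0 are those of Mvd, Dhcr7, Idi1 and Abcg1 in striatum.

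For the mean over regions, the 95% confidence intervals of all 26 genes lay between -0.47 (the lower bound of Pmvk) and 0.44 (the upper bound of Dhcr7). Within 1 region the intervals were wider, with a median half-width of 0.44 log2 units. The largest differences in the mean over regions were those of Pmvk (-0.23 ± 0.12, SE), Mvd (-0.22 ± 0.10, adjusted p = 0.892) and Dhcr7 (0.16 ± 0.14). Pmvk and Mvd encode consecutive enzymes of the mevalonate pathway, phosphomevalonate kinase and the decarboxylase that makes isopentenyl diphosphate. They were also the 2 of the 26 genes (7.69%) whose difference had the same sign in all 5 regions, against 7.93% of all genes tested. The median difference of the 26 genes was -0.003 in the mean over regions, with 12 positive and 14 negative, and that of all genes tested was 0.006.

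The striatum held the 3 genes at an unadjusted p under 0.05. Idi1, the isomerase that balances the isoprenoid building blocks, read 9.09, 8.78, 9.36 and 9.48 in the Ala arrays and 8.60, 8.87, 8.49 and 8.71 in the Thr arrays. The highest Thr array exceeded the lowest Ala array, so the groups overlapped by 1 array on each side, and the difference was 0.51 ± 0.20 (adjusted p = 0.741). Mvd read 6.24, 5.92, 5.43 and 5.71 in Ala and 6.19, 6.63, 6.20 and 6.40 in Thr, a difference of -0.53 ± 0.23 (adjusted p = 0.771), and 6 of the 8 signals were above the negative control median of their own array. Abcg1, which exports cholesterol to lipoproteins, read 9.66, 10.36, 10.27 and 10.89 in Ala and 8.98, 10.26, 9.90 and 10.11 in Thr, a difference of 0.48 ± 0.23 (adjusted p = 0.815). The Thr array at 8.98 was the lowest of the 8 striatal arrays, and the other 3 Thr arrays lay inside the range of the Ala arrays. Dhcr7, the reductase of the last step of synthesis, had a larger but less precise difference of 0.52 ± 0.31 there. Choroid plexus markers differed between these groups as well: the score of 13 genes ran from -0.20 to 2.52 in the Ala arrays and from -1.35 to -0.68 in the Thr arrays. The liver score of 10 genes ran from -1.14 to -0.63 in Ala and from 0.33 to 2.39 in Thr, and the part of the liver score was not tested beyond the fit without the arrays that stood apart. When the fit held the choroid plexus score of each array, the differences were 0.51 for Idi1, -0.37 for Mvd and 0.40 for Abcg1, with an adjusted p of 0.999 for each (limma).

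**Figure D2:**
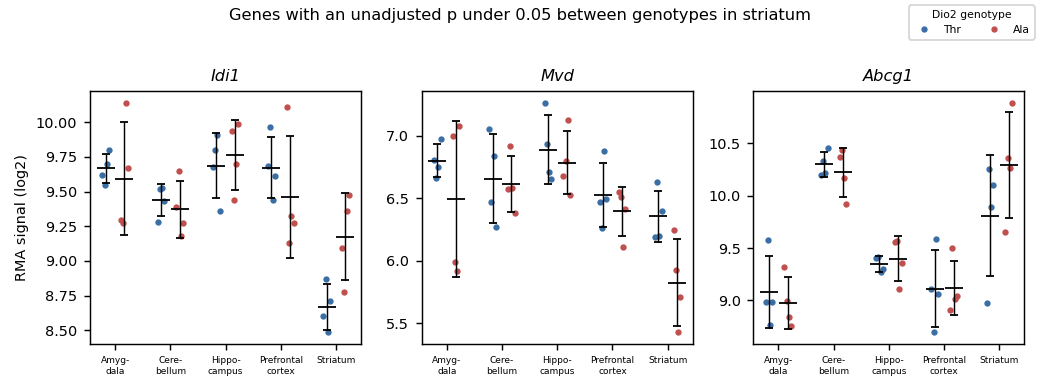
RMA signal (log2, vertical axis) of Idi1, Mvd and Abcg1 on each array by region (horizontal axis) and genotype, with group means and SD (n = 4). In striatum Idi1 and Abcg1 lay higher and Mvd lower in the Ala arrays, but the groups overlap for each gene, and outside striatum the differences of Idi1 run from -0.21 to 0.08 and those of Abcg1 from -0.10 to 0.05.

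In the other regions the genes with the smallest p were spread over the pathway. In amygdala, Pmvk read 7.79, 6.78, 7.32 and 7.51 in Ala and 7.40, 7.69, 8.43 and 7.75 in Thr (-0.47 ± 0.27, adjusted p = 0.992). Its neighbours Mvd (-0.30 ± 0.23) and Mvk (-0.27 ± 0.22), the kinase that acts just before Pmvk, came next. Of the 26 genes, 20 had a negative difference in amygdala, with a median of -0.09, against a median of 0.004 over all genes. The share of negative differences over all genes is not given here. The score of amygdala markers ran from -1.11 to 0.07 in the Ala arrays and from -0.31 to 0.80 in the Thr arrays. Ala replicate 1 stood high in striatal markers (2.39) and Ala replicate 2 in choroid plexus markers (1.69). The part of these scores in the amygdala differences was not tested. In cerebellum, Hsd17b7, a reductase of sterol demethylation, read 9.17, 9.60, 9.43 and 9.47 in Ala and 9.25, 8.71, 9.09 and 9.19 in Thr (0.35 ± 0.21). Sqle, which oxidises squalene, differed by 0.36 ± 0.24 and Apoe by 0.25 ± 0.16 in the same region. In hippocampus the sign of Sqle was the opposite (-0.36 ± 0.24), beside Fdps (-0.37 ± 0.28) and Lbr (0.24 ± 0.20). In prefrontal cortex the 3 genes were Scap (0.31 ± 0.23), Lss (0.29 ± 0.20) and Idi1 (-0.21 ± 0.20). None of these 12 values had an adjusted p below 0.992, and the smallest unadjusted p for variation of the genotype difference between regions was 0.112.

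The second comparison was between regions, with both genotypes together. Here 25 of the 26 genes differed between regions (F-test, limma, adjusted p under 0.05), beside 67.2% of all genes tested, and Mvk was the exception (adjusted p = 0.954). The gap between the highest and the lowest regional mean had a median of 0.94 log2 units over the 26 genes, from 0.13 for Mvk to 4.99 for Cyp46a1, and of 0.68 over all genes tested. Cerebellum had the lowest mean for 11 of the 26 genes and striatum for 9 (42.3% and 34.6%, against 31.9% and 22.3% of all genes). Amygdala and cerebellum each had the highest mean for 7 (26.9%, against 15.9% of all genes in amygdala and 32.8% in cerebellum). Prefrontal cortex had it for 6 (23.1%, against 12.9% of all genes), hippocampus for 4 (15.4%, against 13.1%) and striatum for 2 (7.69%, against 25.3%). The 5 comparisons of a region with the mean of the other 4 share arrays, so they are not independent of each other. Cerebellum stood far from the other regions for many genes and is in the reference of each of them, so every forebrain region was also compared with the mean of the other 3 forebrain regions, a comparison added after seeing the data. In tissue, fewer cells of a type and less RNA per cell cannot be told apart.

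**Figure D3:**
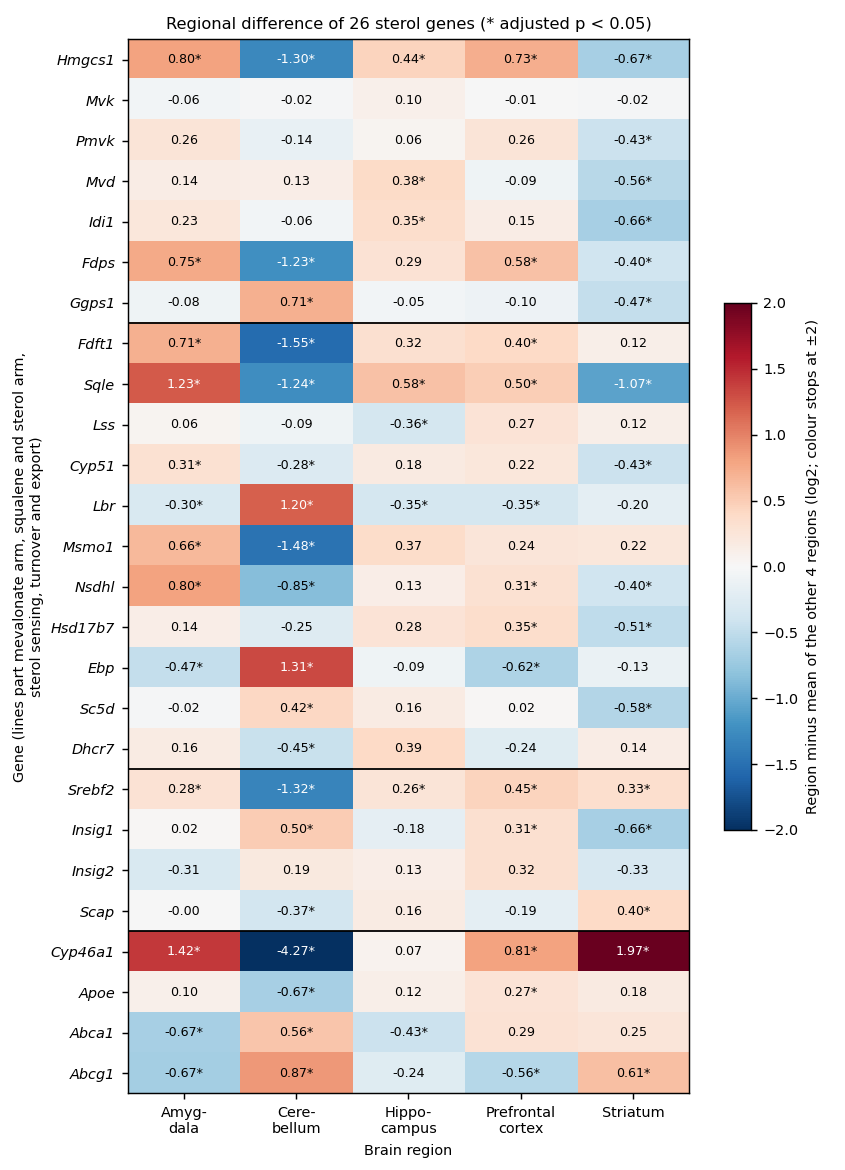
Difference of each region (columns) from the mean of the other 4 regions, in log2 units, for the 26 genes (rows, grouped by role); red is higher, blue is lower, colour stops at 2 units, and an asterisk marks an adjusted p under 0.05. Cerebellum shows both the lowest values (Cyp46a1, Fdft1, Msmo1) and high synthesis values (Ebp at 1.31, Lbr at 1.20), and the mevalonate genes other than Mvk are blue in striatum.

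Cerebellum had the most calls, with 19 of 26 genes, 7 higher and 12 lower, beside 56.1% of all genes tested (28.6% higher and 27.5% lower). With a difference of at least 1 log2 unit, 9 genes were called, 2 higher and 7 lower, beside 18.2% of all genes. In the mevalonate arm, Hmgcs1, which condenses acetyl-CoA units into the precursor of mevalonate, ran from 13.44 to 13.96 (median 13.78) over the 8 cerebellar arrays. In amygdala, hippocampus and prefrontal cortex no array was below 14.80, and striatum lay between, from 13.48 to 14.92. The cerebellar difference was -1.30 ± 0.11 (adjusted p = 3.22e-13), a 2.45-fold lower signal. Fdps, which joins isoprenoid units to farnesyl diphosphate, ran from 4.75 to 5.71 in cerebellum, lower than the negative control median of any array. Its level there was not above background, and its fitted difference of -1.23 ± 0.16 is limited by that floor. In contrast Ggps1, which draws farnesyl diphosphate off to the lipid anchor of membrane proteins, was higher in cerebellum, from 12.38 to 12.74, with no array of another region above 12.27 (0.71 ± 0.08).

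In the squalene and sterol arm the cerebellar genes went both ways. Fdft1, squalene synthase, the first step that belongs to sterols alone, ran from 10.42 to 11.13 (median 10.78) in cerebellum. Every other array was at 11.50 or above, so the regions did not overlap, and the difference was -1.55 ± 0.13 (2.92-fold, adjusted p = 3.94e-13). Msmo1, the monooxygenase that starts the removal of methyl groups from sterols, ran from 7.79 to 9.04 (median 8.09) and differed by -1.48 ± 0.14. Its highest cerebellar array, at 9.04, reached into the range of prefrontal cortex and striatum, while the other 7 stayed below. Sqle was also lower in cerebellum (6.96 to 8.01, -1.24 ± 0.13), and so were Nsdhl, the dehydrogenase that follows Msmo1 (-0.85 ± 0.10), Dhcr7 (-0.45 ± 0.17) and Cyp51, the lanosterol demethylase (-0.28 ± 0.11).

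Ebp and Lbr were the 2 synthesis genes that stood at least 1 unit higher in cerebellum. Ebp, the isomerase that shifts the double bond of the sterol ring, ran from 8.72 to 9.28 (median 9.07) there and no higher than 8.38 in the other regions, which did not overlap (1.31 ± 0.12, 2.48-fold, adjusted p = 1.54e-12). Lbr, a protein of the inner nuclear membrane that is also a sterol reductase, ran from 9.51 to 10.30 (median 9.94) and no higher than 9.38 elsewhere (1.20 ± 0.11, adjusted p = 3.7e-12). Sc5d, a desaturase that acts after Ebp, was higher by 0.42 ± 0.09. Lss, which closes the sterol rings, had a difference of -0.09 ± 0.11 and Hsd17b7 of -0.25 ± 0.12, neither past the threshold.

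The regulators of the pathway differed in cerebellum as well. Srebf2 ran from 13.04 to 13.58 (median 13.19) in cerebellum and from 14.23 upwards on all 32 other arrays, with no overlap (-1.32 ± 0.09, 2.50-fold, adjusted p = 4.27e-17). Its means in the other 4 regions, 14.51 to 14.67, did not differ between neighbours in order. Insig1, which retains the SREBP complex and is itself induced by it, was higher in cerebellum (0.50 ± 0.11), Scap was lower (-0.37 ± 0.13), and Insig2 had a difference of 0.19 ± 0.15 (adjusted p = 0.278).

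**Figure D4:**
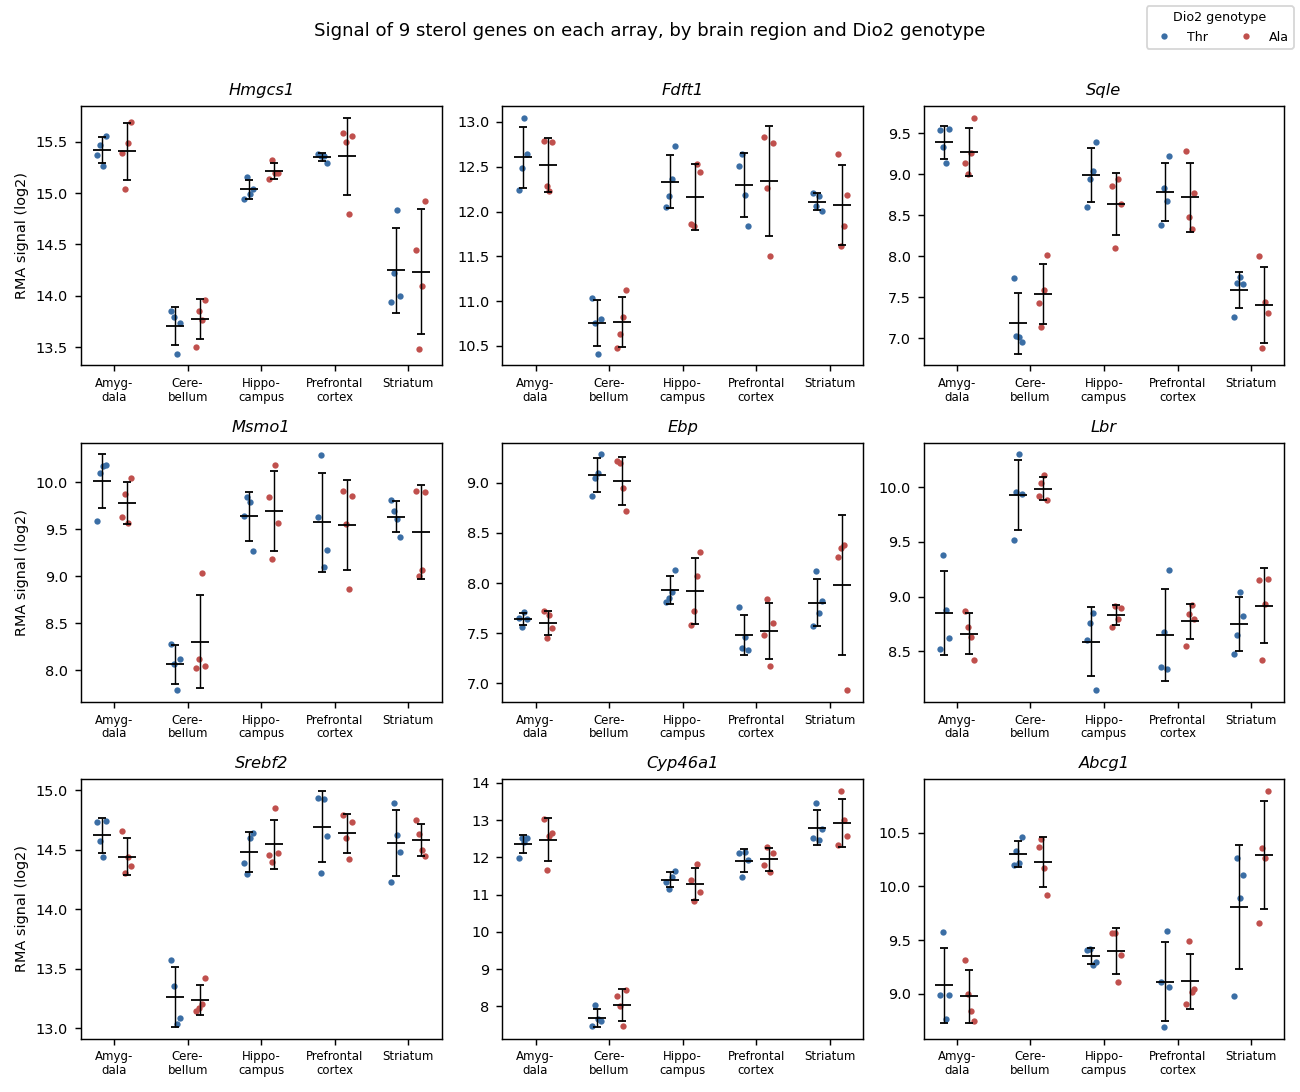
RMA signal (log2, vertical axes, each panel with its own range that does not start at 0) of 9 genes on each of the 40 arrays by region (horizontal axis) and genotype, with group means and SD (n = 4). Cerebellar arrays sit below the rest for Fdft1, Srebf2 and Cyp46a1 and above the rest for Ebp and Lbr, in both genotypes.

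Among the genes of turnover and export, Cyp46a1 had the widest regional difference of the 26. It ran from 7.46 to 8.44 (median 7.83) in cerebellum, and the lowest array of any other region was at 10.82. The cerebellar signal was 19.3-fold below the mean of the other 4 regions (-4.27 ± 0.15, adjusted p = 8.1e-26). Striatum was highest, from 12.34 to 13.78 (median 12.67), followed by amygdala (11.66 to 13.03, median 12.52), prefrontal cortex (11.47 to 12.29, median 12.03) and hippocampus (10.82 to 11.82, median 11.37). Striatum and amygdala did not pass the threshold against each other (-0.44 ± 0.19 as amygdala minus striatum, adjusted p = 0.0669), nor did amygdala and prefrontal cortex (adjusted p = 0.0864). Prefrontal cortex and hippocampus differed (adjusted p = 0.0221), as did hippocampus and cerebellum by 11.1-fold. The difference held in each genotype, at -4.43 in the Thr arrays and -4.11 in the Ala arrays.

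The lipid carrier and its transporters were divided in cerebellum. Apoe, made mainly by astrocytes, was lower there (16.63 to 17.46, median 17.12; -0.67 ± 0.09), and the other 4 regions, with means from 17.69 to 17.83, did not differ between neighbours in order. Abcg1 (0.87 ± 0.13) and Abca1 (0.56 ± 0.14) were higher. Markers of cell types moved with this comparison: 9 of 12 astrocyte markers were higher and 2 lower in cerebellum (median 0.71), 8 of 12 neuron markers were lower and 4 higher (median -0.53), and 11 of 11 microglia markers were lower (median -1.71). Their part in the differences of these genes was not tested. Centring each array on its median moved the median of all genes in cerebellum by -0.103 and gave 20 calls in place of 19, with no named gene changing sign. The share over all genes in that fit is not given here. Without the arrays that stood apart, 19 genes were again called, beside 54.2% of all genes in the same fit.

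In striatum many synthesis genes were lower and none was higher. Of the 26 genes, 16 were called, 4 higher and 12 lower, beside 42.9% of all genes tested (20.3% higher and 22.6% lower). With at least 1 log2 unit, 2 were called, Cyp46a1 and Sqle, beside 10.6% of all genes. Against the other 3 forebrain regions 16 genes were also called, beside 39.7% of all genes, and 15 of them were the same genes. Of the 18 synthesis enzymes, 11 were lower and 0 higher, with a median difference of -0.41, against 0.002 over all genes tested. In the mevalonate arm 6 of 7 genes were lower: Hmgcs1 (-0.67 ± 0.11), Idi1 (-0.66 ± 0.11), Mvd (-0.56 ± 0.13), Ggps1 (-0.47 ± 0.08), Pmvk (-0.43 ± 0.15) and Fdps (-0.40 ± 0.16). Mvk was the remaining gene, at -0.02 ± 0.13. In striatum Mvk was above the negative control median of the same array on 2 of 8 arrays, Fdps on 4 and Mvd on 6. These 3 genes were thus measured near background there. Idi1 ran from 8.49 to 9.48 (median 8.82) in striatum, and its lowest array in any other region was at 9.13, so the ranges overlapped in part.

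Sqle was the synthesis gene farthest below the others in striatum. It ran from 6.87 to 8.00 (median 7.55) there, against 9.00 to 9.69 in amygdala and 8.10 to 9.39 in hippocampus (-1.07 ± 0.13, adjusted p = 1.13e-08). Striatum and cerebellum did not differ for Sqle (7.49 and 7.36, adjusted p = 0.544). Sc5d (-0.58 ± 0.09), Hsd17b7 (-0.51 ± 0.12), Cyp51 (-0.43 ± 0.11) and Nsdhl (-0.40 ± 0.10) were lower too. Fdft1 and Msmo1, the genes lowest in cerebellum, were not called in striatum (0.12 ± 0.13 and 0.22 ± 0.14).

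The genes called higher in striatum were regulators and genes of removal. Cyp46a1 differed by 1.97 ± 0.15 (3.92-fold, adjusted p = 2.51e-14), Abcg1 by 0.61 ± 0.13, and Scap by 0.40 ± 0.13, and all 3 were also called against the other forebrain regions (0.97, 0.88 and 0.33). Srebf2 differed by 0.33 ± 0.09, but by -0.0017 ± 0.09 from the other forebrain regions (adjusted p = 0.989), so that its call rested on the low cerebellar level. Insig1 was lower (-0.66 ± 0.11). Abcg1 varied more in striatum (8.98 to 10.89) than in any other region. Oligodendrocyte and myelin markers were higher in striatum for 14 of 14 genes (median 2.06). Of the neuron and of the astrocyte markers 7 of 12 were lower, beside 22.6% of all genes. How many of the 12 in each list were higher is not given here. The part of these markers was not tested. Scap lost its call without Ala replicate 34 (adjusted p = 0.0688) or Thr replicate 38 (adjusted p = 0.071). Without the arrays that stood apart 15 genes were called, beside 36.5% of all genes in that fit. Within the Thr arrays alone 8 genes were called, fewer arrays being compared, and this count is not set beside the share over all genes there.

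In amygdala 13 of the 26 genes were called, 9 higher and 4 lower, beside 31.7% of all genes tested (14.9% higher and 16.8% lower). Cyp46a1 (1.42 ± 0.15) and Sqle (1.23 ± 0.13) were the 2 genes called with at least 1 log2 unit, beside 5.67% of all genes. Sqle ran from 9.00 to 9.69 (median 9.29), and amygdala was above the next region in order, hippocampus (adjusted p = 0.0305). Nsdhl (0.80 ± 0.10), Hmgcs1 (0.80 ± 0.11), Fdps (0.75 ± 0.16), Fdft1 (0.71 ± 0.13), Msmo1 (0.66 ± 0.14), Cyp51 (0.31 ± 0.11) and Srebf2 (0.28 ± 0.09) were higher as well. The size for Fdps is limited by background in its reference. It was above the negative control median on 0 of 8 arrays in cerebellum and 4 of 8 in striatum. Against the other 3 forebrain regions 6 of the 26 genes were called, beside 21.3% of all genes, and all 6 were among the 13: Sqle (0.98 ± 0.14), Nsdhl (0.62 ± 0.10), Hmgcs1 (0.50 ± 0.12) and Fdps (0.48 ± 0.16) were higher, and Abca1 (-0.57 ± 0.14) and Abcg1 (-0.48 ± 0.13) lower. Fdft1, Msmo1, Cyp51 and Cyp46a1 were not called there (0.26 to 0.37, adjusted p from 0.0748 to 0.153), and Srebf2 was at -0.05 ± 0.09. Nsdhl was the other gene whose amygdala mean exceeded that of the next region, prefrontal cortex (12.37 and 11.98, adjusted p = 0.0238).

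The 4 genes called lower in amygdala were Abcg1, Abca1, Ebp and Lbr. Abcg1 and Abca1 differed by -0.67 ± 0.13 and -0.67 ± 0.14, Ebp by -0.47 ± 0.12 and Lbr by -0.30 ± 0.11. Against the other forebrain regions Ebp (-0.15 ± 0.12) and Lbr (0.0036 ± 0.12) were not called, so that both calls rested on the high cerebellar level. The call of Lbr was the least secure: it was lost under quantile normalization (adjusted p = 0.0678), median centring (0.0665), without the filter on dim genes (0.0515), without the arrays that stood apart (0.0612), and on leaving out any of 12 single arrays. These were Ala replicates 2, 3 and 4 and Thr replicates 5, 7 and 8 of amygdala, replicates 11 and 15 of cerebellum, 22 and 23 of hippocampus and 33 and 39 of striatum, with adjusted p of up to 0.132. All 14 oligodendrocyte and myelin markers were lower in amygdala (median -2.17), and their part was not tested. Without the arrays that stood apart 13 genes were called, beside 29% of all genes in that fit.

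In prefrontal cortex 13 of the 26 genes were called, 10 higher and 3 lower, beside 25.1% of all genes tested (12.4% higher and 12.7% lower), and 0 with at least 1 log2 unit, beside 5.07% of all genes. Cyp46a1 (0.81 ± 0.15), Hmgcs1 (0.73 ± 0.11), Fdps (0.58 ± 0.16), Sqle (0.50 ± 0.13), Srebf2 (0.45 ± 0.09) and Fdft1 (0.40 ± 0.13) led the higher genes, followed by Hsd17b7, Insig1, Nsdhl and Apoe at 0.27 to 0.35. As in amygdala, the size for Fdps is limited by its signals near background in cerebellum and striatum. Hmgcs1 read 14.80 to 15.59 (median 15.38) and did not differ from amygdala (adjusted p = 0.861). Ebp (-0.62 ± 0.12), Abcg1 (-0.56 ± 0.13) and Lbr (-0.35 ± 0.11) were lower. Against the other 3 forebrain regions 4 genes were called, beside 20.3% of all genes: Insig1 (0.47 ± 0.12), Hmgcs1 (0.43 ± 0.12) and Abcg1 (-0.37 ± 0.13) of the 13, and Abca1 (0.46 ± 0.14). Cyp46a1 turned to -0.27 ± 0.16 there (adjusted p = 0.252), and Fdft1 (0.01 ± 0.14) and Lbr (-0.05 ± 0.12) lay near 0. A single array decided part of this count: without Ala replicate 25, 8 genes were called. Fdft1 lost its call without Ala replicate 25, Ala replicate 28, Thr replicate 29 or Thr replicate 30 (adjusted p from 0.0642 to 0.105), and Lbr without Ala replicate 25, Thr replicate 29 or Thr replicate 31 (0.0606 to 0.0694). Lbr also lost it without the arrays that stood apart (0.0541), where 13 genes were called, beside 24.8% of all genes in that fit. Within the Thr arrays 5 genes were called and within the Ala arrays 6, with fewer arrays compared in each. Neither these counts nor the 8 without Ala replicate 25 are set beside the share over all genes in the same fits. Oligodendrocyte and myelin markers were lower for 13 of 14 genes (median -0.99), and their part was not tested.

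In hippocampus 8 of the 26 genes were called, 5 higher and 3 lower, beside 27.1% of all genes tested (13.4% higher and 13.7% lower), a share near that background, and 0 with at least 1 log2 unit, beside 5.74% of all genes. Sqle (0.58 ± 0.13), Hmgcs1 (0.44 ± 0.11), Mvd (0.38 ± 0.13), Idi1 (0.35 ± 0.11) and Srebf2 (0.26 ± 0.09) were higher. Abca1 (-0.43 ± 0.14), Lss (-0.36 ± 0.11) and Lbr (-0.35 ± 0.11) were lower. Against the other 3 forebrain regions 5 genes were called, beside 21.1% of all genes: Mvd (0.44 ± 0.13), Idi1 (0.35 ± 0.11) and Lss (-0.40 ± 0.12) of the 8, and Sc5d (0.29 ± 0.09) and Cyp46a1 (-1.07 ± 0.16). Hmgcs1 was at 0.12 ± 0.12, Sqle at 0.29 ± 0.14 and Srebf2 at -0.076 ± 0.09 in that comparison. Without the 9 arrays that stood apart, 3 of these genes were called, Hmgcs1, Mvd and Lss, beside 22.6% of all genes in that fit, and the other 5 had adjusted p from 0.0631 (Sqle) to 0.27 (Lbr). Mvd also lost its call without Ala replicate 19 (0.0763) or Thr replicate 21 (0.0837), Lss without Thr replicate 21 (0.0505), Srebf2 without Ala replicate 19 (0.0855) or Thr replicate 24 (0.0575), and Lbr without Thr replicate 24 (0.0766). Within the Thr arrays 3 genes were called and within the Ala arrays 1, with fewer arrays compared in each. These counts are not set beside the share over all genes in the same fits.

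How the 26 genes varied together was examined after the mean of each group had been removed, so that differences between groups do not enter. Over the 40 arrays the 153 pairs of synthesis enzymes had a median Pearson correlation of 0.11, and 67.3% were above 0. All 325 pairs of the 26 genes had a median of 0.06, and all pairs of genes tested had a median of 0.002, with 50.3% above 0. Arrays of a group share tissue and normalization, so these values are a description of the arrays. Fdft1 and Msmo1 had the highest correlation (Pearson r = 0.62, Spearman rho = 0.63), followed by Hsd17b7 with Srebf2 (r = 0.60), Pmvk with Fdft1 (r = 0.57) and Mvd with Hsd17b7 (r = 0.56). Insig1, a target of SREBP-2 and its brake, had the highest median correlation with the synthesis enzymes (0.26). Pairs of a synthesis enzyme with a gene of turnover or export had a median of -0.03. The lowest values were those of Cyp51 with Insig2 (r = -0.55), Dhcr7 with Apoe (r = -0.54) and Fdps with Abcg1 (r = -0.54).

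**Figure D5:**
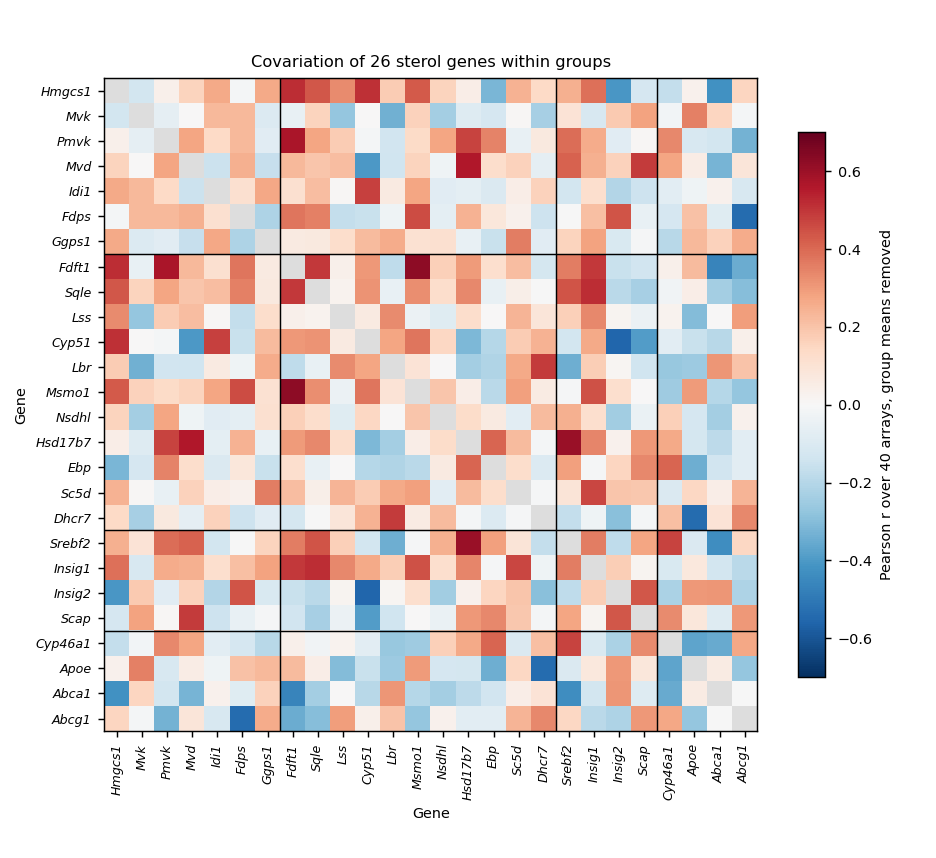
Pearson correlation of each pair of the 26 genes over 40 arrays after the group means were removed; both axes list the genes by role, lines part the roles and the diagonal is grey. The highest value is that of Fdft1 with Msmo1 (0.62), while the median over all 325 pairs is 0.06.

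Other genes of sterol and lipid handling were counted from 7 further lists, with 61 genes tested of 79 listed. None of the 61 was called between genotypes in any region or in the mean over regions, and 1 to 5 of them had an unadjusted p under 0.05 in each of these comparisons. Between regions their counts were 5 higher and 20 lower in amygdala, 28 and 12 in cerebellum, 10 and 12 in hippocampus, 5 and 11 in prefrontal cortex and 20 and 20 in striatum. All genes tested passed at 14.9% and 16.8%, 28.6% and 27.5%, 13.4% and 13.7%, 12.4% and 12.7%, and 20.3% and 22.6% in the same order, so that several of these counts lie near the share over all genes.

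Genes of uptake, which bring lipoprotein cholesterol into cells and release it from endosomes, had 6 of 10 members higher and 1 lower in cerebellum, beside 28.6% and 27.5% of all genes. Lrp1, a receptor for apolipoprotein E, was higher by 0.99 ± 0.13 and Vldlr, a receptor of the same family, by 0.93 ± 0.10. Scarb1, a receptor for high-density lipoprotein, was lower there (-1.66 ± 0.11) and higher in striatum (1.50 ± 0.11). Npc1, which moves cholesterol out of late endosomes, was higher in striatum (0.75 ± 0.13) and lower in amygdala (-0.81 ± 0.13). Among transfer proteins, Stard5 was higher in cerebellum by 2.70 ± 0.12. In that list 6 of 11 genes were higher and 3 lower there, beside 28.6% and 27.5% of all genes.

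Among genes of export and of oxysterol turnover, Lcat, which esterifies cholesterol on lipoproteins, was higher in cerebellum by 2.51 ± 0.15 and Pltp, a lipid transfer protein, by 1.91 ± 0.16, while Clu, which encodes the lipoprotein component clusterin, was lower (-0.88 ± 0.11). Cyp7b1, which hydroxylates oxysterols, was lower in cerebellum (-1.44 ± 0.14) and higher in hippocampus (1.95 ± 0.14). Cyp27a1, a mitochondrial sterol hydroxylase, was higher in cerebellum (1.82 ± 0.16) with a mean signal of 5.32 over all arrays, near background. Erg28, a scaffold of sterol demethylation, was higher in cerebellum (1.25 ± 0.10), where Msmo1 and Nsdhl, which act in the same step, were lower.

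Of 9 genes of SREBP processing and partners, 2 were higher and 3 lower in cerebellum, near the shares over all genes there: Nfyc, a subunit of NF-Y, was higher (1.41 ± 0.10) and Nfyb, another subunit, was lower (-0.98 ± 0.13). Mbtps1, the protease that makes the first cleavage of SREBP, was higher in striatum (1.40 ± 0.11) and lower in amygdala (-0.63 ± 0.11). Of 13 fatty acid genes driven by SREBP factors, 5 were higher and 2 lower in cerebellum, beside 28.6% and 27.5% of all genes. Elovl6, a fatty acid elongase, was at 1.17 ± 0.16 there and Fads2, a desaturase, at -0.93 ± 0.09. In striatum 5 were higher and 6 lower, beside 20.3% and 22.6% of all genes, with Me1, the malic enzyme, at -1.43 ± 0.12. In prefrontal cortex 0 of the 13 were called, beside 25.1% of all genes, with 13 differences between -0.42 and 0.19.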

How the data were processed

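Gene expression was measured on 40 Affymetrix arrays, 4 for each of 5 brain regions and 2 Dio2 genotypes. The authors' deposited values are log2 signals; the submitters' processing notes name RMA, and its version is not given in the sources used here; no scaling was added. Symbols came from the platform annotation. The row with the highest mean was kept for each of 19505 genes, and the 15410 genes above the 30th percentile (log2 4.47) on at least 4 arrays were fitted in limma 3.58.1 (R 4.3.3) with 10 group means, lmFit and eBayes with a trend (30 residual degrees of freedom). A call means an adjusted p under 0.05 (Benjamini-Hochberg, over all genes tested). In each genotype comparison the 3 genes with the smallest p were named, and the values of every array were printed for some of them. In each region comparison up to 6 called genes per direction were eligible for full values. From the 7 further lists up to 3 called genes per direction were eligible to be named. The genes and lists were chosen with earlier results of these data known. The steps were tested on simulated data. Alternatives covered scaling, region reference, filter, row choice, spread, array weights, tissue scores, threshold, genotype and single arrays. The number of arrays limits precision.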

Additional observations from a re-analysis of the deposited data

Results flagged for a closer look

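In groups of 4 arrays, a value was singled out when its gap to the nearest other array took up more of the group's range than Dixon's 95% critical value allows, a rule that chance meets in about 1 of 20 groups. It was met in 15 of 260 groups.

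In amygdala, Scap read 10.38 in Ala replicate 3 (other arrays of the group 11.12 to 11.15) and Msmo1 read 9.59 in Thr replicate 5 (10.10 to 10.18). In cerebellum, Msmo1 read 9.04 in Ala replicate 11 (8.02 to 8.11). Thr replicate 13 was high for Insig1 at 11.38 (10.92 to 10.94) and for Sqle at 7.73 (6.96 to 7.02), and Nsdhl read 10.55 in Thr replicate 15 (11.22 to 11.33).

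In hippocampus, Ala replicate 19 was high for Fdps at 6.80 (6.15 to 6.21) and for Srebf2 at 14.86 (14.40 to 14.48), and Dhcr7 read 10.50 in Thr replicate 23 (9.73 to 9.80). In prefrontal cortex, Ala replicate 27 was low for Cyp51 at 10.62 (11.11 to 11.19) and for Hmgcs1 at 14.80 (15.49 to 15.59). Mvk read 6.27 in Ala replicate 25 (5.50 to 5.61) and 6.26 in Thr replicate 30 (5.68 to 5.75), all near background. In striatum, Ebp read 6.93 in Ala replicate 36 (8.26 to 8.38), an array with a choroid plexus score of 2.52, and Cyp51 read 10.90 in Thr replicate 39 (10.37 to 10.44).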

How the results depend on the processing

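The count of genes called between genotypes was 0 in each region, in the mean over regions and in the test of variation between regions under every alternative run and with every single array left out. Between regions, counts with 1 array left out ran from 11 to 13 in amygdala, 17 to 20 in cerebellum, 6 to 11 in hippocampus, 8 to 14 in prefrontal cortex, 14 to 17 in striatum and 22 to 25 for any difference between regions. The shares over all genes in the same fits are not given here. The count of 8 in prefrontal cortex with 1 array left out had moved by over 1.5 times. Apart from single arrays and the change of reference below, the counts that moved so far were as follows. Within the Thr arrays they were 3 in hippocampus, 5 in prefrontal cortex and 8 in striatum. Within the Ala arrays they were 1 in hippocampus and 6 in prefrontal cortex. Each of these came from fewer arrays. In hippocampus the count was also 3 without the 9 arrays with transcripts of neighbouring tissue, an alternative chosen after seeing the data. It was 3 as well without the 11 arrays high in markers of any other tissue listed. With cerebellum left out of the reference, also chosen after seeing the data, the counts were 6 in amygdala, 5 in hippocampus, 4 in prefrontal cortex and 16 in striatum, and 4 named values changed sign: Lbr in amygdala (0.0036), Srebf2 in hippocampus (-0.076) and striatum (-0.0017), and Cyp46a1 in prefrontal cortex (-0.27). In each of these the mean of the other 4 regions had been moved by the cerebellar level. No other value of a named gene changed sign. All 18 genotype values and 25 of 49 region values kept their side of the threshold in every fit. No paired analysis was possible because the groups share no replicate numbers. Signals near background limit Mvk, Fdps and Mvd.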
